A study of Mus musculus with 2 samples.

Results

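Most genes of glycolysis, glycogen and lactate metabolism had a KO/WT ratio between 2/3 and 3/2 in cultured astrocytes of WT and β-arr1 KO mice. So did most analysed genes. The ratio lay between 0.9 and 1.1 in 51.3% of the members and in 44.9% of all genes at or above the level of the lowest member. Of the 39 members listed, 3 were past the limits of the comparison (7.69%, against 11.3% of those genes), and all 3 were higher in KO. Slc2a3, a neuronal-type glucose transporter, was at 2.04 times its WT level. Pgk1, a glycolytic kinase that makes ATP, was at 1.98 times, and Egln3, an oxygen-sensing prolyl hydroxylase, at 1.69 times. No member was below the lower limit. Of the 39, 76.9% were higher in KO, against 52.6% of the genes at or above the level of the lowest member. The members are 40 genes chosen by symbol from textbook roles: uptake and phosphorylation of glucose, the steps of glycolysis, making and export of lactate, entry of pyruvate into the mitochondrion, glycogen turnover, and sensing of oxygen. Joining the WT and KO tables by symbol gave 16302 genes, of which 39 were members listed in both. The remaining member, Eno1, had no row under its own symbol and is described by its locus. The muscle isoforms Pfkm, Pgam2, Eno3 and Pygm are given apart.

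Astrocytes were cultured from the dentate gyrus (DG) of adult mice labelled C57BL/6 (a C57BL/6J background in the methods of the study). One group was WT (genotype label wildtype), and the other was β-arr1 KO (genotype label Beta-arr1 knockout), in which β-arrestin 1 is lacking in all cells of the animal from conception and not in astrocytes alone. Neither group was given an agent, and both were grown in a medium with added glucose, insulin, transferrin, selenite and serum. The cDNA is described as pooled, and 1 library was sequenced per genotype, so there was no replicate check and no test, and no p-value is given. Values are FPKM, that is, fragments scaled to the length of the transcript and to the mapped fragments of the library. A ratio of β-arr1 KO vs. WT above 3/2 or below 2/3 was taken as past the limits. Beside a ratio stands its 95% interval, which was computed from estimated fragments (exact Clopper-Pearson) and covers counting error only, not the difference between cultures.

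Glycolysis splits glucose into pyruvate in the cytosol and yields ATP without oxygen. Astrocytes are known for high glycolytic flux, for holding most of the glycogen of the brain, and for the release of lactate that neurons can take up. Many genes of the pathway are targets of the hypoxia-inducible factors, whose α subunits are marked for breakdown by the Egln prolyl hydroxylases when oxygen is present.

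The 2 libraries were of near-equal estimated depth, with 9.38 M mapped fragments in WT and 9.52 M in KO. Arrb1, the gene of β-arrestin 1, was at 7.62 FPKM in WT against 2.72 FPKM in KO (ratio 0.358, interval 0.300 to 0.425). Of 12 astrocyte markers, 11 were listed, among them Gfap at 189 FPKM in WT against 192 FPKM in KO, and Fabp7 was not listed in either library. Markers of other cells were present as well. The 10 microglia markers summed to 1235 FPKM in WT against 934 FPKM in KO, and 7 listed markers of pericytes and smooth muscle summed to 5739 and 5403 FPKM. Sums of fibroblast and meningeal markers were 622 and 329 FPKM, and those of oligodendrocyte lineage markers were 107 and 153 FPKM. In such bulk samples, fewer cells of a type and less RNA per cell cannot be told apart.

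In all, 12646 genes had 1 FPKM or more in WT, in KO or in both, and 17.8% of them were past the limits, 9.56% above 3/2 and 8.28% below 2/3. Genes listed in 1 library alone counted as past the limits. Of the 2256 genes past them, 1781 were listed in both libraries. The members were well above that minimum. Among the 10296 genes listed in both libraries at or above the level of the lowest member (3.29 FPKM in the higher library), 11.3% were past the limits, 6.06% above and 5.27% below. These genes share the lowest level of the members but are not matched to their higher levels. The 3 of 39 members above 3/2 were 7.69%, and the 0 below compare with that 5.27%. Of the 39, 30 were higher in KO and 9 were lower (76.9% higher, against 52.6% of those 10296 genes). Their median log2 ratio was 0.09, against 0.01 for those genes. In 20 members (51.3%) the ratio lay between 0.9 and 1.1, as it did in 44.9% of those genes. The interval left out 1 for 17 members (43.6%), close to the 42.4% of the 10043 of those genes with an annotated transcript. Of the 17, 16 were higher in KO (41.0% of the members, against 23.2% of those genes). FPKM of the members summed to 0.696% of the WT total and 0.772% of the KO total, and the summed value in KO was 1.11 times that in WT.

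**Figure D1:**
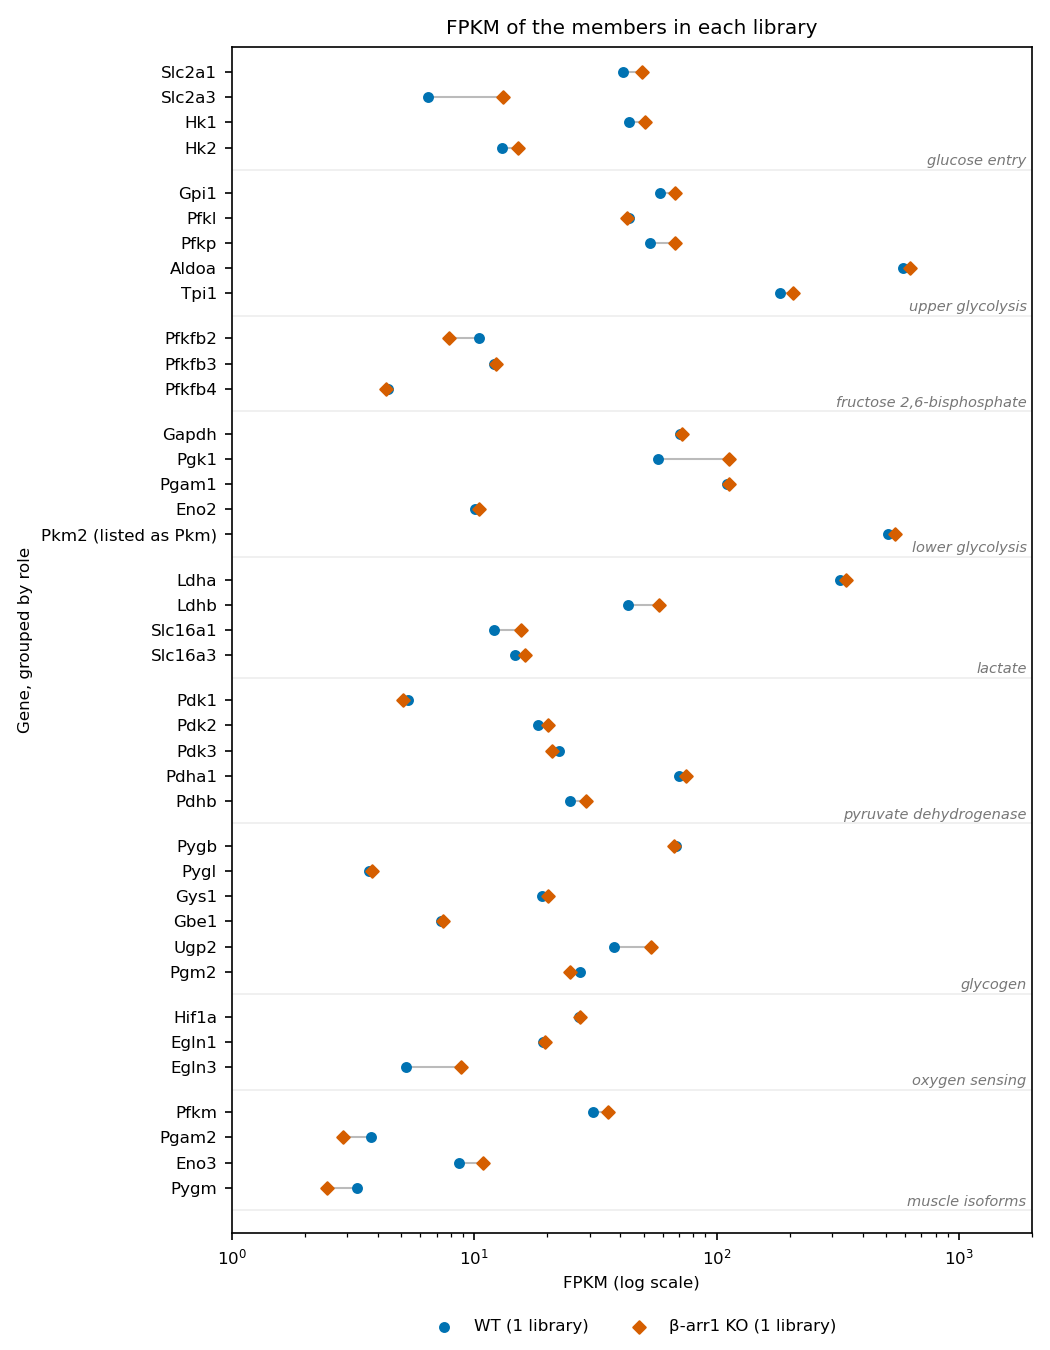
FPKM of the 39 listed members (log axis) in the WT library (circles) and the β-arr1 KO library (diamonds), grouped by role, with a line joining both values of a gene. Aldoa and Pkm2 have the highest levels in both libraries, and the symbols are farthest apart for Slc2a3, Pgk1 and Egln3.

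**Figure D2:**
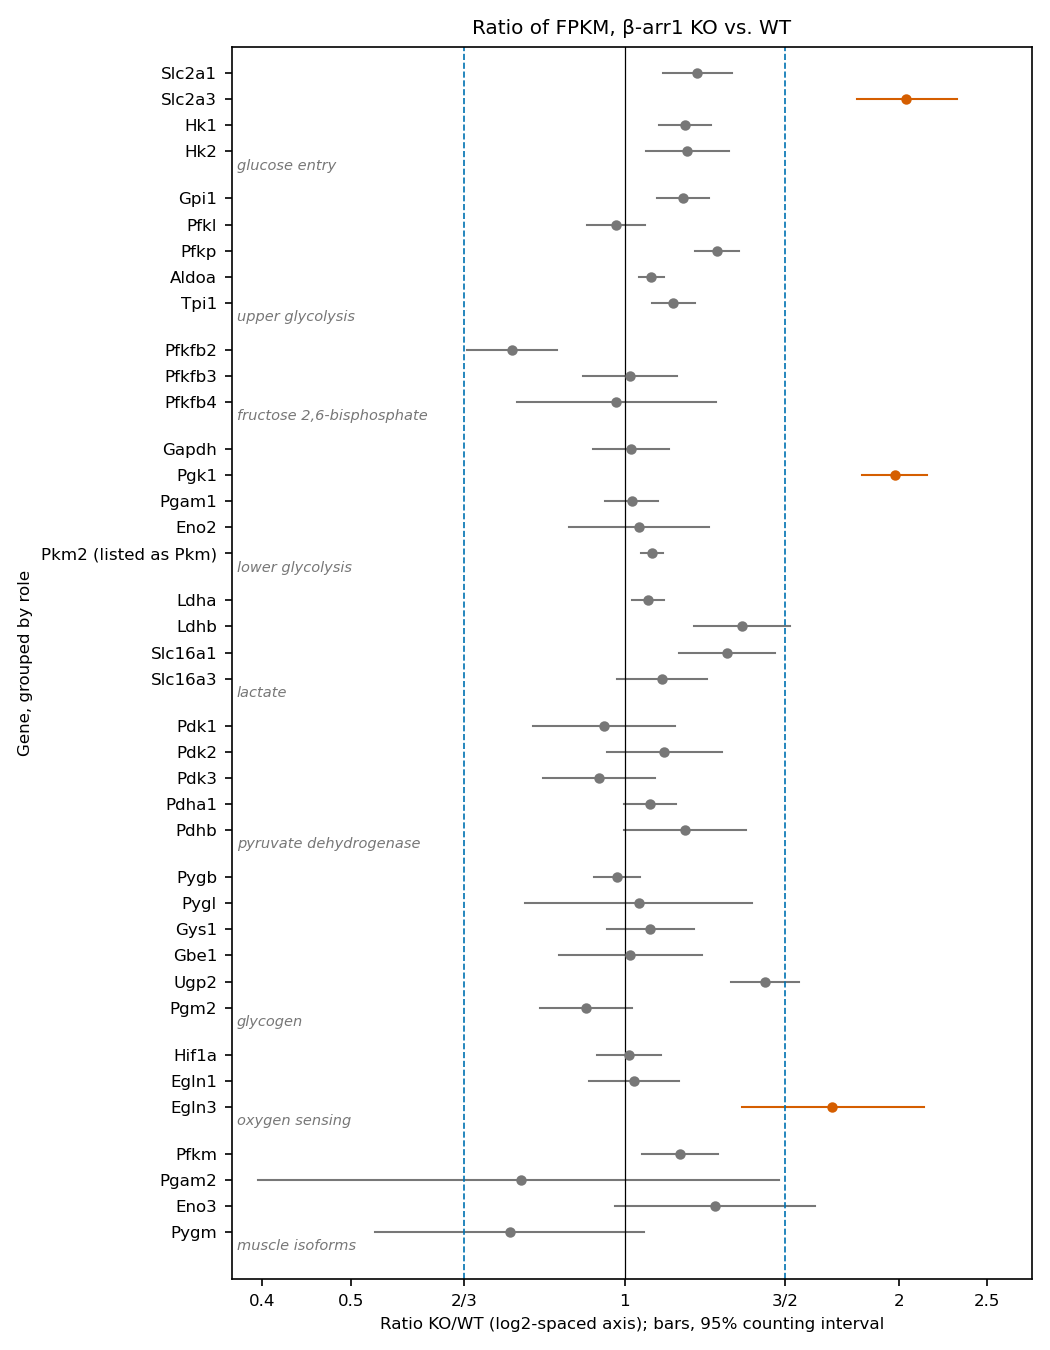
Ratio of FPKM, β-arr1 KO vs. WT, of the 39 listed members on a log2-spaced axis. Bars are 95% intervals for counting error only, dashed lines are the limits 2/3 and 3/2, and members above 3/2 are in orange. With fragments estimated from the longest transcript, as drawn, Slc2a3 (2.04) and Pgk1 (1.98) have whole intervals above 3/2, while that of Egln3 (1.34 to 2.13) crosses it.

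The sequences upstream of Pgk1, Egln3, Ldha and Ldhb are shown with matches to ACGTG, one of the core forms to which hypoxia-inducible factors are known to bind. Pgk1 and Egln3 were past the limits. The lactate dehydrogenases are shown since their ratios differed. Each line gives the 250 bases before an annotated start, 5′ to 3′ on the strand of the gene, from RefSeq (GRCm38.p6). Each was found once, as an exact match, in NCBIM37 (mm9), which is the build of the files, and its coordinates are of that build. ACGTG and its reverse complement CACGT are in capitals. A CACGTG holds both, so that it counts as 2 matches.
Pgk1 (chrX:103382189-103382438, plus strand): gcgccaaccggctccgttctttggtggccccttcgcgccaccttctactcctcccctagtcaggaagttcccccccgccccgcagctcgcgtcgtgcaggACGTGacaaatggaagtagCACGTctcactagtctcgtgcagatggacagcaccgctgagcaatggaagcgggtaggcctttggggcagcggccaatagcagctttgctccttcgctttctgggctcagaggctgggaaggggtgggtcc
Egln3 (chr12:55304862-55305111, minus strand): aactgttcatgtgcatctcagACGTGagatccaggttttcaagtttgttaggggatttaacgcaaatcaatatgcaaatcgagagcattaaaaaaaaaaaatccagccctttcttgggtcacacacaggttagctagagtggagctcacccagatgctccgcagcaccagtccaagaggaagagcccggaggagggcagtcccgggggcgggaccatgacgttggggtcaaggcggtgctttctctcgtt
Ldha (chr7:54100924-54101173, plus strand): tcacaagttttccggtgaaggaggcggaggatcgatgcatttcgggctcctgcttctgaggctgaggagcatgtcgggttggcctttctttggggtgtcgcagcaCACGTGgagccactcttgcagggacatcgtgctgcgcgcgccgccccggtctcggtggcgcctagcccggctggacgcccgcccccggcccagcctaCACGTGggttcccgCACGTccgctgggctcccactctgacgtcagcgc
Ldhb (chr6:142456478-142456727, minus strand): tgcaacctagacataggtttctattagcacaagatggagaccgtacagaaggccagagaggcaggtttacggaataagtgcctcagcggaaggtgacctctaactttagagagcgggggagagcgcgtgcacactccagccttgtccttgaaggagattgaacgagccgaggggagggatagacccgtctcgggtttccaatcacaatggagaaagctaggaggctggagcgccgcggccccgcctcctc
The Pgk1 window held 2 matches, 150 and 131 bases before the start, and the Egln3 window held 1 match, 229 bases before the start. In Ldha there were 5, some overlapping, at 145, 144, 48, 47 and 34 bases. A second annotated start of Ldha had no ACGTG in its 250 bases, and neither had Ldhb. Both of these did hold the other core form, GCGTG, once on either strand, which is not in capitals above. The lines of Pgk1, Egln3 and Ldha held no GCGTG. In windows that also include 50 bases after the start, ACGTG was found on either strand in 25 of the 39 members with a window (64.1%; Eno1 is among these, and Slc2a3 is not in the table), in 28.9% of the 10016 analysed genes with one and in 21.8% of all 27025 genes of the table. GCGTG was found in 61.5% of members, 55.9% of analysed genes and 35.2% of all genes. Genes with more annotated starts had more windows to match. The members include genes picked as known targets of these factors, so their share is a description of the list. Matched letters are not shown to be sites in these cells.

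The 4 members of glucose entry were all higher in KO. Slc2a1 encodes the main glucose transporter of astrocytes and of the blood-brain barrier. It was at 41.2 FPKM in WT against 49.4 FPKM in KO (ratio 1.20, interval 1.10 to 1.31). Slc2a3 encodes a transporter of high affinity that is best known from neurons. It was at 6.49 FPKM in WT against 13.2 FPKM in KO, from about 369 and 769 fragments (ratio 2.04, interval 1.80 to 2.31). Slc2a3 had the highest ratio of the members. The end of its locus (chr6:122677827-122747900 in WT) was 13 bases apart in the WT and KO tables. Slc2a3 made up 13.6% of the summed FPKM of both transporters in WT and 21.1% in KO, so that Slc2a1 stayed the more abundant. Levels of neuronal markers differed widely. Snap25 was at 0.108 and 0.261 FPKM, from about 5 and 12 fragments. Rbfox3, which marks mature neurons, was at 0.0743 and 0.108 FPKM, from about 2 and 3 fragments. Gad1 was at 0.137 and 0.266 FPKM, and Dcx was listed only in KO. Going the other way, Syt1 was at 0.207 and 0.157 FPKM and Slc17a7 at 0.113 and 0.0736 FPKM, and Nefl was listed only in WT. Of the 11 neuronal markers, 3 reached 1 FPKM, and none of these 3 was past the limits. The listed markers summed to 83.6 and 106 FPKM, most of it Tubb3 and Stmn2. Their part in the Slc2a3 value was not tested.

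Hexokinases trap glucose in the cell as glucose 6-phosphate. Hk1, the form typical of brain, was at 43.4 FPKM in WT against 50.5 FPKM in KO (ratio 1.16, interval 1.09 to 1.24). Hk2, the form induced by insulin and hypoxia, was at 13.0 and 15.2 FPKM (ratio 1.17, interval 1.05 to 1.30). Hk3, a hexokinase of myeloid cells that is no member, went the other way, with 19.9 FPKM in WT against 14.0 FPKM in KO (ratio 0.705, interval 0.620 to 0.802). Its share of the hexokinase sum was 26.1% in WT and 17.6% in KO. Of the 10 microglia markers, 9 were lower in KO, with a median log2 ratio of -0.34, though only Cd68 was below 2/3. The part of these cells in the Hk3 value was not tested.

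Upper glycolysis prepares and splits the sugar. Gpi1, which converts glucose 6-phosphate to fructose 6-phosphate, was at 58.4 FPKM in WT against 67.7 FPKM in KO (ratio 1.16, interval 1.09 to 1.24). Phosphofructokinase commits the sugar to glycolysis, and its subunits differed in ratio. Pfkp, the platelet-type subunit, was at 53.4 and 67.4 FPKM (ratio 1.26, interval 1.20 to 1.34), and Pfkl, the liver-type subunit, was at 43.6 and 42.7 FPKM (ratio 0.979, interval 0.910 to 1.05). The intervals of these subunits did not overlap where fragments were estimated from the longest transcript. With the shortest coding transcript they did (1.042 to 1.54 for Pfkp, 0.910 to 1.053 for Pfkl). The share of Pfkp in the sum of the 3 subunits was 41.7% in WT and 46.3% in KO, that of Pfkl was 34.1% and 29.3%, and that of the muscle subunit was 24.2% and 24.4%. Aldoa, an aldolase, was the member with the highest level, at 587 FPKM in WT against 628 FPKM in KO (ratio 1.07, interval 1.04 to 1.10), and ranked 50 and 47 among all listed genes. The loci of Hk1, Pfkp and Pfkm overlapped those of other rows (2210417K05Rik, Pitrm1 and Senp1), and the sums over these loci had ratios of 1.22, 1.24 and 1.15. Tpi1, which interconverts the resulting trioses, was at 182 and 206 FPKM (ratio 1.13, interval 1.07 to 1.19).

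Aldoc, the brain-type aldolase and a marker of mature astrocytes, is no member. It was at 13.5 FPKM in WT against 21.6 FPKM in KO (ratio 1.60, interval 1.39 to 1.84). It made up 2.24% of the aldolase sum in WT and 3.32% in KO. Of 11 listed astrocyte markers, 4 were above 3/2 and none was below 2/3, where 9.56% and 8.28% of all analysed genes were. Aldoc is itself among the 11 and the 4, so these counts are not independent of its value. Beside Aldoc, those above were S100b at 1.77, Aqp4 at 1.92 and Slc1a2 at 1.58. Glul at 0.742 and Gja1 at 0.862 were lower in KO, and Gfap was at 1.02. Whether more astrocytes in the KO culture had a part in the Aldoc value was not tested.

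The Pfkfb enzymes make and break fructose 2,6-bisphosphate, the strongest activator of phosphofructokinase. Pfkfb3, the form with the highest kinase activity, was at 12.1 FPKM in WT against 12.3 FPKM in KO (ratio 1.01, interval 0.900 to 1.14). Pfkfb2 was at 10.5 and 7.87 FPKM (ratio 0.752, interval 0.671 to 0.843) and was the only member that was lower in KO with an interval that left out 1. Pfkfb4 was at 4.42 and 4.32 FPKM (ratio 0.979, interval 0.761 to 1.26). In the sum of the 3 genes, the share of Pfkfb2 was 38.8% in WT and 32.2% in KO, and that of Pfkfb3 was 44.9% and 50.2%. Pfkfb1, a liver and muscle form outside the members, was at 1.60 and 0.853 FPKM, from about 37 and 21 fragments (ratio 0.534, interval 0.297 to 0.937).

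Lower glycolysis recovers ATP. Pgk1 transfers a phosphate from 1,3-bisphosphoglycerate to ADP. It was at 57.2 FPKM in WT against 113 FPKM in KO, from about 877 and 1814 fragments (ratio 1.98, interval 1.82 to 2.15). Among the members of this stretch, Pgk1 was below Gapdh in WT (70.7 FPKM) and above it in KO (71.8 FPKM), where it was level with Pgam1 (113 FPKM). Pgk1, Gapdh and Pgam1 each have near-identical copies elsewhere in the genome. Their order thus depends on how shared reads were divided. The neighbouring steps did not share the difference of Pgk1 between the libraries. Gapdh, which acts just before Pgk1, had a ratio of 1.02 (interval 0.922 to 1.12). Pgam1, the mutase just after it, was at 111 and 113 FPKM (ratio 1.02, interval 0.952 to 1.09). Eno2, the neuron-type enolase, was at 10.1 and 10.4 FPKM (ratio 1.04, interval 0.868 to 1.24). Pkm2, the pyruvate kinase gene, which is listed as Pkm and whose row does not separate the M1 and M2 forms, was at 508 and 544 FPKM (ratio 1.07, interval 1.04 to 1.10).

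The locus of Pgk1 (chrX:103382463-103399038) had the same bounds in both tables. Elsewhere in NCBIM37, Pgk1 had 2 intronless copies of 99.94% identity, on chromosomes 12 and 3, and no row was listed at either, so that reads shared with them are uncertain. Pgk1 is on the X chromosome, as are Pdk3 (ratio 0.937) and Pdha1 (ratio 1.07). Of 447 analysed X-linked genes, 80 were past the limits (17.9%, near the 17.8% of all analysed genes). The libraries differed in Y-linked genes, with Ddx3y at 2.47 FPKM, Eif2s3y at 4.53 FPKM, Kdm5d at 0.635 FPKM and Uty at 0.811 FPKM in KO and none of these listed in WT. Xist, which is expressed from the inactive X of females, was at 39.4 FPKM in WT against 29.7 FPKM in KO. The sex of the pooled mice is not given in the sources used here, and its part in the Pgk1 value was not tested.

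Eno1 encodes the main enolase of most tissues. The locus of Eno1 on chromosome 4 (GENCODE, chr4:149610830-149622988) was covered by a row with another symbol, Gm5506. That row was at 171 FPKM in WT against 185 FPKM in KO (ratio 1.08, interval 1.02 to 1.13). Taken as Eno1, it made up 90.1% of the summed enolases in WT and 89.6% in KO. A second row with the symbol Gm5506 lay at an intronless copy of Eno1 elsewhere in the genome, at 304 and 314 FPKM. How reads were divided between the locus and the copy is not known, and both rows together had a ratio of 1.05.

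Gapdh was another member with copies. The FPKM of Aldoa was 8.30 times that of Gapdh in WT and 8.74 times in KO. Gapdh had 85 near-identical copies in NCBIM37 (at least 95% identity over at least 50% of the transcript), of which 82 had no intron, so reads shared with them are uncertain. Of the 40 members, 10 had at least 1 such copy: Eno1, Gapdh, Gpi1, Ldha, Ldhb, Pdhb, Pgam1, Pgk1, Pkm2 and Tpi1. Those 9 that were listed were all higher in KO, and their median log2 ratio was 0.18. The 30 listed members without a copy had a median log2 ratio of 0.07, with 21 higher in KO and 2 above 3/2. The part of shared reads in these values was not tested.

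All 4 genes of lactate were higher in KO and none passed 3/2. Ldha, whose subunit favours the making of lactate, was at 323 FPKM in WT against 342 FPKM in KO (ratio 1.06, interval 1.02 to 1.10). Ldhb, whose subunit favours its use, was at 43.0 and 57.8 FPKM (ratio 1.34, interval 1.19 to 1.52). The interval of Ldhb lay wholly above that of Ldha where fragments were estimated from the longest transcript. With the shortest coding transcript, their intervals overlapped (0.959 to 1.17 for Ldha, 1.15 to 1.57 for Ldhb). The level of Ldha was 7.51 times that of Ldhb in WT and 5.92 times in KO. Slc16a1, a monocarboxylate transporter (MCT1) that carries lactate both ways, was at 12.1 and 15.6 FPKM (ratio 1.29, interval 1.15 to 1.46). Slc16a3, the exporter MCT4 of glycolytic cells, was at 14.7 and 16.2 FPKM (ratio 1.10, interval 0.980 to 1.23). Slc16a7, the neuronal MCT2 and no member, was at 1.75 and 1.63 FPKM.

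The chaperones that bring these transporters to the membrane are no members. Bsg, the partner of MCT1 and MCT4, was at 422 FPKM in WT against 386 FPKM in KO (ratio 0.915, interval 0.883 to 0.949). Emb, which partners MCT2, was at 13.8 and 7.94 FPKM (ratio 0.576, interval 0.470 to 0.703) and thus below 2/3. Ldhd, a D-lactate dehydrogenase, was listed only in KO, at 2.53 FPKM. Its locus overlapped that of Znrf1, which was listed only in WT, at 6.83 FPKM, and the sum over both rows had a ratio of 0.371.

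At the entry of pyruvate into the citric acid cycle, 3 members were higher and 2 lower in KO, with every interval including 1. Pdha1 and Pdhb encode the E1 subunits of pyruvate dehydrogenase. Pdha1 was at 70.2 FPKM in WT against 74.8 FPKM in KO (ratio 1.07), and Pdhb at 24.8 and 28.8 FPKM (ratio 1.16). The kinases that switch the complex off were at 5.36 and 5.08 FPKM for Pdk1, the hypoxia-induced form (ratio 0.948), at 18.3 and 20.2 FPKM for Pdk2 (ratio 1.11), and at 22.3 and 20.9 FPKM for Pdk3 (ratio 0.937). The summed level of the 4 kinases, with Pdk4, was 51.4 FPKM in both libraries. Pdp1, the phosphatase that switches the complex back on and no member, was at 10.4 and 6.06 FPKM (ratio 0.583, interval 0.494 to 0.687).

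**Figure D3:**
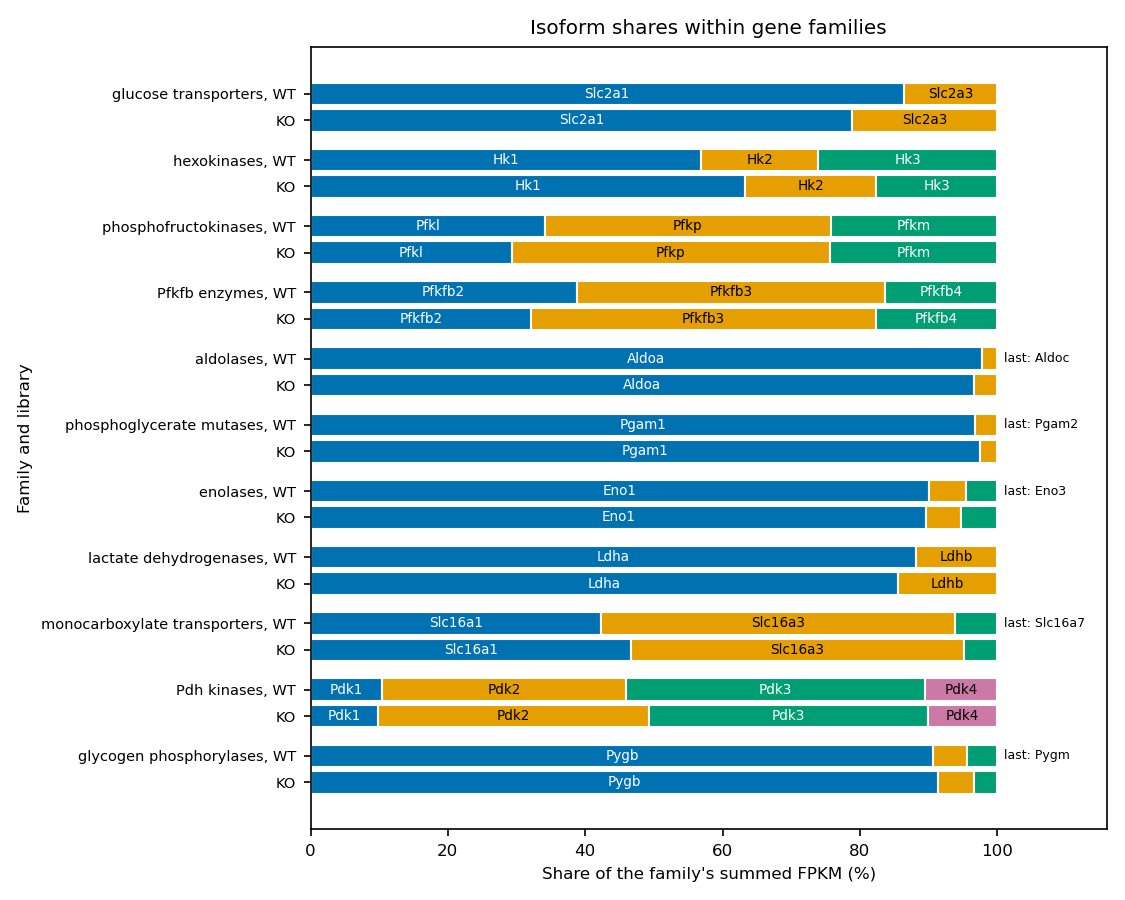
Share of each gene in the summed FPKM of its family (bars from 0 to 100%) in the WT and the β-arr1 KO library. Small middle segments are Eno2 and Pygl. Shares of Slc2a3 (13.6% and 21.1%), Hk3 (26.1% and 17.6%) and Pfkfb2 (38.8% and 32.2%) differ most, while Aldoa, Pgam1, Eno1 (its locus) and Pygb lead their families in both.

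Glycogen genes were close in level save for Ugp2, which makes the UDP-glucose that glycogen is built from. Ugp2 was at 37.8 FPKM in WT against 53.9 FPKM in KO (ratio 1.42, interval 1.31 to 1.55), just inside the upper limit. The start and end of its locus differed between the tables, and it overlapped that of Vps54. The summed level of both rows had a ratio of 1.36. Pygb, the brain form of glycogen phosphorylase, was at 67.9 and 66.6 FPKM (ratio 0.981, interval 0.926 to 1.04), and Pygl, the liver form, at 3.68 and 3.81 FPKM (ratio 1.04, interval 0.777 to 1.38). Pygb made up 90.7% of the summed phosphorylases in WT and 91.4% in KO. Gys1, the glycogen synthase outside the liver, was at 19.0 and 20.3 FPKM (ratio 1.07, interval 0.955 to 1.19), and Gbe1, the branching enzyme, at 7.32 and 7.43 FPKM (ratio 1.01, interval 0.847 to 1.21). Pgm2, a phosphoglucomutase that newer annotation names Pgm1, was at 27.5 and 24.9 FPKM (ratio 0.907, interval 0.807 to 1.02).

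Of the oxygen-sensing members, Hif1a, the α subunit of the hypoxia-inducible factor 1, was at 27.0 FPKM in WT against 27.3 FPKM in KO (ratio 1.01, interval 0.931 to 1.10). Its mRNA does not tell of the protein, whose amount is set by breakdown. Egln1, the main hydroxylase, was at 19.2 and 19.7 FPKM (ratio 1.02, interval 0.914 to 1.15). Egln3, a hydroxylase that is itself induced by hypoxia, was at 5.23 and 8.83 FPKM, from about 121 and 212 fragments (ratio 1.69, interval 1.34 to 2.13). The locus of Egln3 (chr12:55279968-55304861) had the same bounds in both tables.

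The 4 muscle isoforms were all between the limits, 2 higher and 2 lower in KO. Pfkm, the muscle phosphofructokinase that is also made in brain, was at 30.9 FPKM in WT against 35.5 FPKM in KO (ratio 1.15, interval 1.04 to 1.27). Eno3, the muscle enolase, was at 8.70 and 10.9 FPKM (ratio 1.25, interval 0.975 to 1.62). Pgam2, the muscle mutase, was at 3.75 and 2.88 FPKM, from about 23 and 19 fragments (ratio 0.769, interval 0.396 to 1.48). Pygm, the muscle phosphorylase, was at 3.29 and 2.46 FPKM (ratio 0.749, interval 0.532 to 1.05), the lowest ratio of the members.

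Markers of skeletal muscle differed far more between the same libraries. Of 17 markers, 15 were listed in at least one library and 9 reached 1 FPKM. All 9 were above 3/2, where 9.56% of all analysed genes were. Tnnt3, Actn3, Myog, Mb and Tnnc2 (not listed in WT) reached 1 FPKM in KO alone. For these, the minimum itself selected a higher KO value. The listed markers summed to 16.9 FPKM in WT against 128 FPKM in KO. Mylpf, a myosin light chain of fast muscle, was at 1.08 and 38.7 FPKM, and Acta1, the skeletal actin, at 5.95 and 28.4 FPKM. Myh4 and Atp2a1, which define fast fibres, were not listed in either library. Ckm, the muscle creatine kinase, was at 0.0842 and 0.409 FPKM, from about 1 and 5 fragments (interval 0.543 to 229). Opposite in direction were the myosin genes Myh1 and Myh2, which had a row only in the WT library (0.0806 and 0.413 FPKM). The part of muscle-type cells in the values of the 4 isoforms was not tested. Without these isoforms, 35 members were listed, with 28 higher in KO, the same count of 3 above 3/2, and a median log2 ratio of 0.09.

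**Figure D4:**
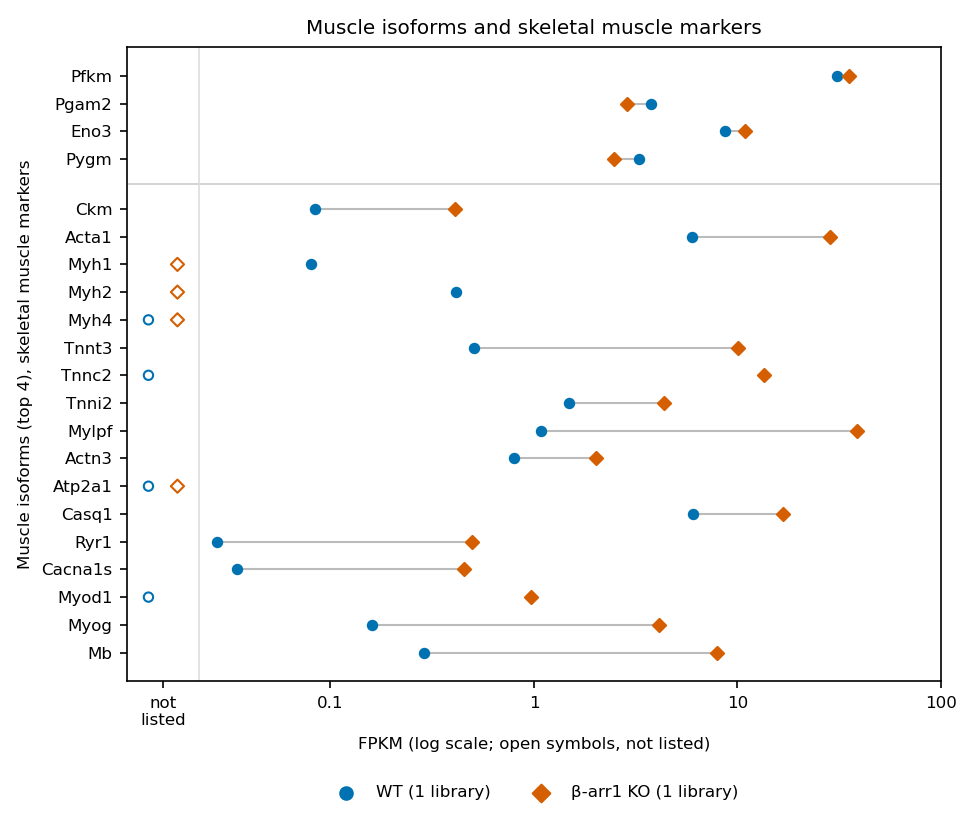
FPKM (log axis) of the 4 muscle isoforms and of 17 skeletal muscle markers in the WT library (circles) and the β-arr1 KO library (diamonds), with open symbols at the left for genes not listed. The isoforms lie close together in both libraries, while Mylpf goes from 1.08 to 38.7 FPKM.

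The members just inside the upper limit were Ugp2 (1.42), Ldhb (1.34), Slc16a1 (1.29) and Pfkp (1.26), and those nearest the lower limit were Pygm (0.749), Pfkfb2 (0.752) and Pgam2 (0.769). The other members ranged from 0.907 (Pgm2) to 1.25 (Eno3).

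Other genes of the pathway were described by lists of 101 genes, 91 of them listed and 83 with at least 1 FPKM in a library. Of the 83, 5 were above 3/2 and 8 below 2/3, where 9.56% and 8.28% of all 12646 analysed genes were. The median log2 ratio was 0.01 for those listed in both, against 0.02 for all analysed genes listed in both. Of the 5, Ldhd and Gsk3a counted as above because their symbols were listed in KO alone, and the sums over their loci were not above 3/2. The other 3 were Aldoc, Vegfa and P4ha1. On the lower side, Car9 counted because its symbol was listed in WT alone. Among those listed in both, the lowest ratio was that of Bpgm, which diverts 1,3-bisphosphoglycerate around the step of Pgk1. Bpgm was at 41.7 FPKM in WT against 17.2 FPKM in KO, from about 793 and 340 fragments (ratio 0.412, interval 0.362 to 0.469), and its locus bounds differed between the tables. Pgk1 and Bpgm, which act on the same substrate, were thus on opposite sides of the limits. In the glycogen list, Ppp1r3b, which targets a phosphatase to glycogen, was at 4.58 and 2.70 FPKM (ratio 0.588, interval 0.457 to 0.755). Gsk3a, a kinase of glycogen synthase, was listed only in KO, at 77.4 FPKM, while the same locus carried the symbol Erf in WT, at 74.7 FPKM (ratio 1.04). All 10 genes of the pentose phosphate pathway, which branches off after hexokinase, were between the limits, from Pgd at 0.820 to Prps1 at 1.38.

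Among other genes of oxygen sensing, 6 of 6 with at least 1 FPKM were between the limits, with Arnt2 at 1.41 and Epas1, the α subunit of the factor 2, at 1.29. Of 25 hypoxia targets outside the enzymes of glycolysis, a list that also holds Egln3 and Pfkfb3, 3 were above 3/2 and 3 below 2/3. Over all analysed genes, 9.56% were above and 8.28% below. Beside Egln3, those above were Vegfa, an angiogenic factor, at 30.3 and 46.8 FPKM (ratio 1.55, interval 1.43 to 1.68), and P4ha1, a collagen prolyl hydroxylase, at 50.9 and 77.9 FPKM (ratio 1.53, interval 1.44 to 1.62). Those below were P4ha2, a second collagen prolyl hydroxylase, at 26.2 and 15.6 FPKM (ratio 0.598, interval 0.529 to 0.675), Car12, a carbonic anhydrase, at 1.33 and 0.725 FPKM (ratio 0.545, interval 0.320 to 0.911), and Car9, another carbonic anhydrase, which had 9.89 FPKM in WT but no row in KO. Car9 thus counted as below by its missing row, which may mean absent or not estimated. Targets between the limits included Adm at 1.14, Ndrg1 at 0.933, Ddit4 at 0.775 and Bnip3 at 1.10, and the median log2 ratio of the list was 0.05. Of 6 fibroblast and meningeal markers with at least 1 FPKM, 5 were below 2/3, where 8.28% of all analysed genes were. The remaining 1, Pdgfra, was above 3/2 at 1.93. The part of such cells in the P4ha2 value was not tested.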

How the data were processed

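RNA of cultured DG astrocytes was sequenced, with 1 library per genotype (groups from the genotype labels). The authors aligned paired reads to mm9 with TopHat (1.4.0 in the submitters' processing notes), ran Cufflinks, and deposited FPKM per gene, which are already scaled for length and library size. How reads shared by several genes were divided is not shown in the tables. The tables hold values above 0 only, so a gene not listed may be absent or not estimated.

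Tables were joined by symbol, genes that reached 1 FPKM in WT, in KO or in both were kept, and ratios were taken without a pseudocount. The step size of low values (below 0.15 FPKM, transcripts over 1000 bases) gave 9.38 M mapped fragments in WT and 9.52 M in KO, with 71.5% and 72.0% of 411 and 428 genes within 5% of a step of 1 to 3 fragments. Fragments per gene used the longest GENCODE vM1 transcript. File starts were raised by 1. Copies were sought with minimap2 2.31-r1302. Computations were checked on simulated data (Python 3.11.15, numpy 2.4.6, pandas 2.3.3, scipy 1.17.1, matplotlib 3.10.9).

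The members and lists were chosen with earlier results of these data known. Every member is named, and other genes are named where past the limits and in a pathway list, where they overlap a member, or where they share its family. Pathway genes cited between the limits and marker genes (such as Bsg, Ndrg1, Gfap and Mylpf) fall outside that rule and were chosen after their values were seen. Alternatives were filters on low values, pseudocounts, scalings, limits, locus bounds, transcript length and overlapping loci.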

Additional observations from a re-analysis of the deposited data

How the results depend on the processing

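With limits of 2 and 1/2, 1 member (Slc2a3) was above and 0 below. Under the other filters, pseudocounts, scalings and locus bounds run, the count above 3/2 was 3, or 2 where loci with differing bounds, Slc2a3 among them, were left out, and the count below 2/3 was 0. Medians of log2 ratios lay between 0.07 and 0.10. Over the pseudocounts, scalings and overlapping loci, the ratio ranged from 1.90 to 2.04 for Slc2a3, from 1.95 to 1.98 for Pgk1 and from 1.58 to 1.69 for Egln3. With the shortest coding transcript in place of the longest, intervals of 13 members rather than 17 left out 1, since those of Slc2a1, Hk1, Hk2 and Ldha then included it. The interval of Slc2a3, from about 14 and 35 fragments, was then 1.07 to 4.10 and crossed 3/2. Those of Pfkp and Pfkl then overlapped, as did those of Ldha and Ldhb. The other genes of the pathway depended more on the settings, with 2 to 9 above and 2 to 9 below. Alternatives chosen after seeing the data were taking Eno1 from the row at its locus, leaving out members with copies, and applying the settings to the other genes of the pathway. No paired analysis was possible because each genotype has 1 library. With 1 library each, a difference between genotypes cannot be told apart from one between cultures.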
